A study of Mus musculus with 14 samples.

Results

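The positions of the chromatin architectural protein CTCF were compared with those of the acetylated histone mark H3K27ac in wild-type (WT) mouse Th1 cells, using the 4 libraries labelled WT with either antibody, of 14 libraries in the series. The method was CUT&RUN, in which an antibody directs a nuclease to its target and the released DNA is sequenced. All 4 libraries came from the C57BL/6J strain. Naive CD4 T cells were taken from spleen and grown for 6 days on plate-bound anti-CD3 with soluble anti-CD28, IL-12 at 10 ng/mL with IL-2 at 1 ng/mL, and live cells were sorted before the assay. Each antibody had 2 WT libraries, which the titles describe as technical replicates of 1 biological replicate, so each WT SD and p-value measures only the spread between such libraries, while the titles number the KO libraries as separate biological replicates. The deposited lists of the 2 CTCF libraries carry different WT numbers in their names, and the titles were followed. The same antibodies in Th1 cells of the C57BL/6J-Ets1-SE-KO strain (KO, 2 libraries each, grown in the same way), the transcription factor ETS1 in WT cells (2 libraries) and a control antibody (IgG, 1 library per genotype) served as comparisons. A region means peaks of an antibody that overlapped by at least 1 bp between its 2 libraries, merged. This gave 26438 CTCF regions, 70.3% of 37630 merged regions, and 19285 H3K27ac regions, 67.0% of 28782.

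CTCF is a zinc-finger protein that binds a long DNA motif, acts as an insulator and, together with cohesin, anchors chromatin loops. H3K27ac marks active promoters and enhancers, and stretches where many such regions lie close together are often called super-enhancers. In T cells both have been used to describe how lineage genes are partitioned from their neighbours.

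The lists hold called peaks and no reads, so depth is unknown, and a longer list can follow from deeper sequencing as well as from more bound sites. The 2 WT lists held 33144 and 31368 CTCF peaks and 24711 and 24581 H3K27ac peaks. The IgG library of WT held 2 peaks, and the 285 IgG peaks of KO lay under 0.783% of the CTCF and 1.07% of the H3K27ac regions. All 20 T cell identity genes had an H3K27ac region within 10 kb, against 53.3% of all 21887 protein-coding genes. The Th1 list had one at 18 of 22 genes, but Ifng and Cxcr3, both defining Th1 genes, had no region of either antibody. Ifng did have peaks in 1 WT H3K27ac library (0.727 kb) and 1 WT CTCF library (0.192 kb). Of the markers of other cells, H3K27ac was called at 0 of 3 NK, 1 of 2 CD8 T, 2 of 5 B cell, 3 of 5 myeloid, 2 of 3 erythroid and 1 of 5 non-haematopoietic genes. The part of other cells in the results was not tested.

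Promoters show both settings of CTCF in letters, so 8 matches to a 12-letter core of its motif are printed here. They are those in windows that overlapped the best-ranked CTCF regions, with and without acetylation. The core was searched as CCA, any 2 bases, AG, any 2 bases and GGC on both strands of 21238 RefSeq promoter windows of GRCm38.p6, each running from 250 bases before to 50 bases after a listed transcript start. The windows covered 17469 genes. A match lay before the start and under a CTCF region at 187 places, of which 136 were in acetylated windows. Each sequence is 60 bases, 5′ to 3′ on the strand that carries the match, with the core in capitals. The first 4 windows held an H3K27ac region and the last 4 did not.
Rsad1, chr11:94549264-94549323, minus strand: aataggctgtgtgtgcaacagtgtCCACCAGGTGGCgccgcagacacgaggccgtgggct
Vps18, chr2:119288639-119288698, minus strand: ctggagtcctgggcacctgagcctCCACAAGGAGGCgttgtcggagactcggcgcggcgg
Zzz3, chr3:152395881-152395940, plus strand: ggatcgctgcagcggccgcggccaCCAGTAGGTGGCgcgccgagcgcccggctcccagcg
Rgs9, chr11:109298235-109298294, plus strand: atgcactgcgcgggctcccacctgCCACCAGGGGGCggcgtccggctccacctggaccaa
Palm, chr10:79793506-79793565, plus strand: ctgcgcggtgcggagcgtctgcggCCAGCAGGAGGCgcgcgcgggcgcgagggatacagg
Hs1bp3, chr12:8313325-8313384, plus strand: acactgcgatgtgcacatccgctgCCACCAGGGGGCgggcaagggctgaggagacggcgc
Rab32, chr10:10558256-10558315, minus strand: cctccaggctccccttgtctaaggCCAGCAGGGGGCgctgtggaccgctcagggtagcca
Nectin2, chr7:19749707-19749766, minus strand: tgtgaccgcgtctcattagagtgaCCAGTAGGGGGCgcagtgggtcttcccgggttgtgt

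At the Vps18 match, a promoter of a vesicle-tethering subunit, the authors' fold enrichment of the CTCF peak was 8.36 and 8.99 in the 2 WT libraries, and that of the H3K27ac peak 4.52 and 3.85. At Zzz3 the CTCF folds were 7.38 and 8.05 and the H3K27ac folds 4.98 and 4.59. At Palm the CTCF folds were similar, 8.49 and 8.14, and neither H3K27ac library had a peak. The 60 bases of Rsad1 lay under an H3K27ac peak in 1 WT library, with a fold of 3.45, and those of Nectin2 likewise, with 3.02, so these 2 sit near the border of the split.

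The motif was a minority feature of promoters in every class. It was in 2.34% of all windows, 3.70% (95% Clopper-Pearson interval 3.22 to 4.22) of the 5736 windows with both CTCF and H3K27ac, and 5.56% (4.31 to 7.05) of the 1151 with CTCF alone. Windows with H3K27ac alone held it in 1.28% of 2646, and windows with neither in 1.60% of 11705. The median GC content of these 4 classes was 64%, 62%, 59.3% and 50.3%, and its part in the matches was not tested. By rank of the CTCF peak, the share went from 2.16% in the weakest 20% of regions to 7.77% in the strongest 20% for acetylated windows, and from 2.03% to 8.90% for the others. A looser search also freed the A of the leading CCA. It includes every match of the first and was added after the data were seen. It gave 16.9% (15.9 to 17.9) of windows with both, 18.2% (16.0 to 20.5) of those with CTCF alone and 9.87% of all windows. The order of the 2 CTCF classes was the same, but their intervals overlapped. Such matches describe letters in these windows and are not tested binding sites.

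CTCF peaks fell in nearly equal shares at gene ends, in gene bodies and between genes, whereas a smaller share of H3K27ac peaks lay between genes. Gene ends, meaning midpoints within 2 kb of either end of a protein-coding gene, took 31.4% and 33.4% of the peaks in the CTCF libraries and 39.1% and 39.2% in the H3K27ac libraries. Gene bodies took 35.9% and 34.9% against 45.7% and 45.5%. Intergenic sequence took 32.7% and 31.7% of CTCF peaks and 15.2% and 15.3% of H3K27ac peaks, a ratio of 2.11. The libraries of the 2 antibodies did not overlap in any of the 3 classes. Peaks were also narrower for CTCF, with a median width of 432 and 431 bp against 615 and 607 bp. With 2 libraries against 2, the exact two-sided permutation test cannot go below 0.333, which all 4 comparisons reached. Over both genotypes, with the WT technical replicates averaged, the 3 biological samples of CTCF and the 3 of H3K27ac did not overlap in any of these measures either, with an exact permutation p of 0.1, the smallest 3 against 3 allow. Restricting all lists to a −log10 q of at least 5 widened the gap at gene ends to 28.7% for CTCF against 79.0% for H3K27ac, and the 20000 best peaks of each library gave 31.4% against 43.9%.

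Among the regions of both libraries, 8954 of CTCF were at gene ends, 9038 in gene bodies and 8446 between genes, or 33.9%, 34.2% and 31.9%. For H3K27ac the numbers were 8674, 7736 and 2875, or 45.0%, 40.1% and 14.9%. The same classes hold 5.55%, 35.3% and 59.2% of the chromosome span, so both antibodies were more frequent per base at gene ends than elsewhere. CTCF regions covered 19.1 Mb with a median width of 581 bp, and H3K27ac regions 22.9 Mb with a median width of 882 bp. These widths exceed those of single peaks because merging takes the outer limits of both libraries.

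**Figure D1:**
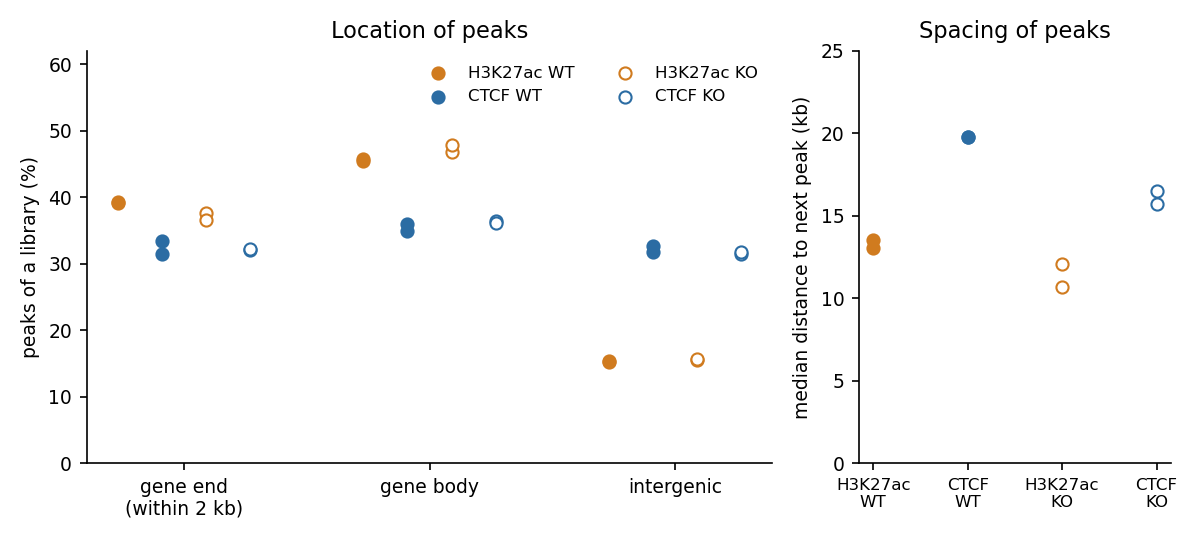
Share of a library's peaks in percent by location (left) and median distance in kb between midpoints of neighbouring peaks (right), with 1 point per library, filled for WT and open for KO. The CTCF libraries stand above the H3K27ac libraries in the intergenic class and in spacing, and below them at gene ends and in gene bodies, in both genotypes.

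Spacing was uneven for both antibodies, and the quartiles of the distances lay further apart for acetylated regions than for CTCF sites. The median distance between neighbouring peaks was 19.8 kb in both CTCF libraries and 13.5 and 13.1 kb in the H3K27ac libraries, with no overlap (exact permutation p = 0.333 for 2 libraries against 2 and 0.1 for 3 biological samples against 3). With the 20000 best peaks of each library the medians were 32 and 18.3 kb. At a −log10 q of at least 5 the order turned, with 60.2 kb for CTCF and 155 kb for H3K27ac, when 10702 and 9463 CTCF but only 4605 and 4398 H3K27ac peaks were left.

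Between regions of both libraries, CTCF distances had quartiles of 8.74 and 62.5 kb around a median of 24.1 kb. H3K27ac distances had quartiles of 5.92 and 65.8 kb around 19.1 kb, so the upper quartile was 7.15 times the lower for CTCF and 11.1 times for H3K27ac. The mean distances, 96.5 kb for CTCF and 137 kb for H3K27ac, were well above the medians. Distances under 10 kb made up 27.7% of those between CTCF regions and 36.4% of those between H3K27ac regions. Location hardly moved the spacing of CTCF: the median distance to the nearest other CTCF region was 12.1 kb at gene ends, 11.5 kb in gene bodies and 11.0 kb between genes. For H3K27ac it was 16.3 kb at gene ends but 5.34 kb in gene bodies and 6.68 kb between genes.

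Density also followed the chromosomes. Chromosome 11 had the most CTCF regions per Mb, 17.7, along with 13.6 H3K27ac regions and 13.2 protein-coding genes per Mb, and chromosome 19 followed with 14.8, 11.1 and 12.1. Chromosome 3 had 7.72 CTCF regions, 4.75 H3K27ac regions and 6.26 genes per Mb. The X chromosome stood apart with 2.38 and 1.95 regions per Mb at 5.65 genes per Mb, and the Y chromosome held 4 CTCF regions. CTCF regions were more numerous than H3K27ac regions on every chromosome but Y, by 1.22 (X) to 1.62 times (chromosome 3). The densest windows of 200 kb were gene-rich: 24 CTCF regions lay in the window with Calr, Junb and Klf1 on chromosome 8 and 24 in that with Matk and Tbxa2r on chromosome 10. The longest stretches between neighbouring CTCF regions that still held an acetylated region were 18093 and 14867 kb on X and 12252 kb on chromosome 15, the last with Cdh6, Cdh9 and Drosha.

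Of the CTCF regions, 8465 overlapped an H3K27ac region, 32% (interval 31.5 to 32.6), although acetylated regions made up 0.849% of the span. Location divided them sharply. At gene ends 65.0% (64.0 to 66.0) were acetylated, in gene bodies 18.8% (18 to 19.6) and between genes 11.2% (10.5 to 11.9). Acetylated sequence made up 6.54%, 1.03% and 0.205% of these classes. Pairing each CTCF library with each H3K27ac library gave 31.6% to 34.5% over all locations, a spread far smaller than the differences between locations. These intervals cover counting error only, and regions of 1 set of libraries are not independent of each other.

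Within gene ends, a listed transcript start made the difference larger. Of 5844 gene-end CTCF regions within 2 kb of a start in the promoter table, 78.3% were acetylated, and of 3110 without one 40%. This split was chosen after the data were seen, and the second class still contains starts of genes that the table lacks. In KO, 36.8% of CTCF regions were in acetylated regions of KO, with 67.3%, 25.4% and 16.3% by location, the same order as in WT. At a −log10 q of at least 5, which left 8013 CTCF and 3836 H3K27ac regions, the overall share was 7.84%.

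Acetylation was less common at CTCF than at ETS1, an ETS-family transcription factor. Of the peaks in each library, 29.7% and 32.1% for CTCF and 62.3% and 52.1% for ETS1 overlapped an H3K27ac region, a mean of 30.9% ± 1.66 against 57.2% ± 7.21 (SD, n = 2 libraries each, exact two-sided permutation p = 0.333, the smallest possible). The KO lists of ETS1 were uneven, at 33.5% and 85.2%, and overlapped the 35.2% and 34.6% of CTCF when set against the KO acetylated regions. Over 3 biological samples of each, with the lists of both genotypes set against the WT acetylated regions, the exact permutation p was 0.3. An ETS1 region overlapped 70.2% of the acetylated CTCF regions and 3.97% of the others. Between genes the shares were 38.2% and 1.53%. Of the 9312 ETS1 regions of both WT libraries, 85.1% overlapped an H3K27ac region, against 32% of CTCF regions. Few ETS1 regions were thus left to overlap CTCF outside the mark, so this split partly restates where ETS1 lay.

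In WT, the CTCF regions inside acetylated sequence had weaker peaks than those outside. Median fold enrichment was 3.64 inside and 4.43 outside in 1 WT library and 3.62 and 4.44 in the other. Ranked by q within each list (100% being the best), the median of the weaker library was 39.7% inside and 55.5% outside. Conversely, the acetylated share was 43.9% in the weakest 20% of CTCF regions and 21.9% in the strongest. Between genes it went from 23.3% to 7.60%, in gene bodies from 31.5% to 12%, and at gene ends from 68.3%, with a peak of 71.3% in the next class, to 52.5%. Width ran the other way: acetylated CTCF regions had a median of 713 bp and the others 538 bp. In KO the fold was also lower inside (4.03 against 4.52 and 4.01 against 4.55), but the order by q was not that of WT: the median −log10 q over all locations was 3.94 inside and 3.83 outside in 1 library and 3.74 and 3.84 in the other. At gene ends of KO it was higher inside in both, 4.76 against 3.49 and 4.42 against 3.56. Most of both groups were called again in the other genotype: 98.0% of the acetylated and 95.1% of the other CTCF regions had a CTCF region of both KO libraries.

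**Figure D2:**
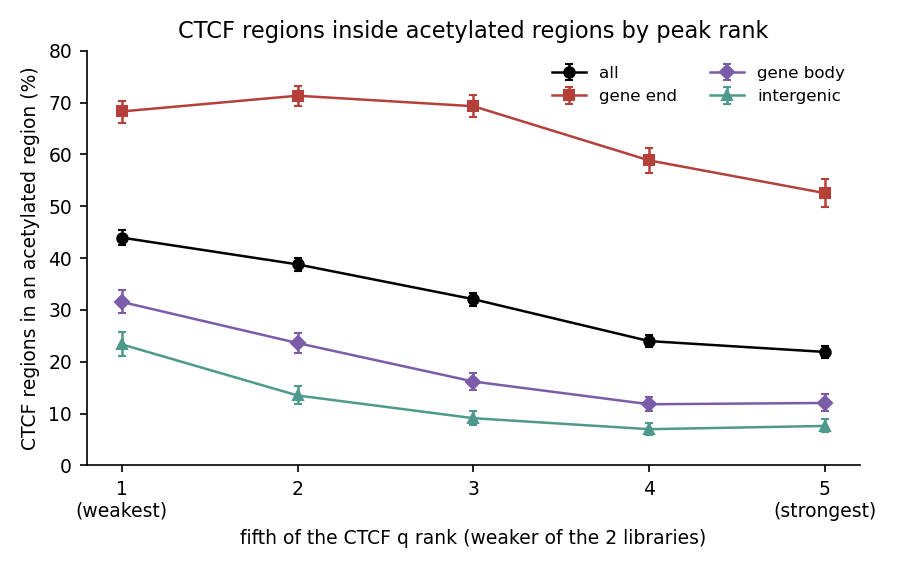
Percent of CTCF regions that overlap an acetylated region, in 5 classes of the q rank in the weaker WT library and by location, with 95% Clopper-Pearson intervals. The share is lower in the strongest than in the weakest class for each location, and gene ends stay above 50% throughout.

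The 3 best-ranked CTCF regions inside acetylated sequence of each location, by q, varied widely in fold. At gene ends, Srd5a3 had CTCF folds of 7.57 and 7.72 with H3K27ac folds of 3.21 and 3.37, and Dtwd2 had 10.8 and 11.1 with 6.02 and 5.96. At Pex7, a peroxisomal import receptor, the folds were 13.6 and 13.6 for CTCF and 7.31 and 8.19 for H3K27ac, with a −log10 q of 35.6 and 35.8 for CTCF. In gene bodies, the best-ranked site, in Zc3h7a, had CTCF folds of 4.68 and 4.15 and H3K27ac folds of 2.44 and 2.61. Rab11fip3 had 16.8 and 18.1 against 3.91 and 4.23, and Cdc14b 10.1 and 10.3 against 4.28 and 4.24. The best-ranked intergenic site, 24069 bp from Rpp21, had a −log10 q of 99.9 and 81.3 for CTCF with folds of only 5.26 and 4.83, and H3K27ac folds of 1.84 and 1.93. The site 64688 bp from Cr2 was alike, with a CTCF q of 62.4 and 71.8 on that scale, folds of 4.43 and 4.77 and H3K27ac folds of 2.69 and 2.91. The third, 15592 bp from Gtpbp4, had CTCF folds of 7.86 and 6.07 and H3K27ac folds of 2.58 and 2.67. No IgG peak lay at any of the 9 sites. The IgG lists held only 2 peaks in WT and 285 in KO, so this says little about background there.

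Seen from the mark, 8363 H3K27ac regions, 43.4%, overlapped a CTCF region. The share was 66.2% (65.2 to 67.2) at gene ends, 21.7% (20.8 to 22.7) in gene bodies and 32.6% (30.9 to 34.4) between genes, so intergenic acetylated regions held CTCF more often than those in gene bodies. Acetylated regions with CTCF ranked higher in their own lists (median 73.0% against 38.7%) and were wider (956 against 819 bp). Across 4 width classes the intergenic share was 33.4%, 32.2%, 32% and 32.9% from the narrowest to the widest. In gene bodies it was 19.4% in the narrowest and 27.5% in the widest class. Of acetylated regions with CTCF 70.7% also overlapped an ETS1 region, against 17.6% of those without. The pooled shares mix locations. The shares were 81.6% against 44.2% at gene ends, 51.3% against 7.40% in gene bodies and 38.9% against 9.34% between genes. Acetylated regions with CTCF were also called in both KO libraries in 95.7% of cases and those without in 82.5%, and between genes in 89.7% and 80%. In KO, 58.0% of H3K27ac regions had CTCF, with longer lists of both antibodies.

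Outside acetylated sequence, CTCF density was nearly level from 1 to 20 kb from the mark and lower at greater distances. Acetylated regions closer than 10 kb were joined into clusters, and CTCF midpoints were counted per Mb of sequence at each distance. By midpoint 7697 CTCF regions lay inside acetylated regions, whereas 8465 overlapped one by at least 1 bp. The difference is counted here as outside the mark, which can raise the nearest classes. There were 337 CTCF regions per Mb inside acetylated regions, 17.7 (counting interval 16.1 to 19.3) between the acetylated regions of a cluster, and 28.5 (26.4 to 30.8) in the first kb outside. From 1 to 20 kb the density stayed between 18.1 and 18.9, and it was 15.6, 11.1, 6.54 and 2.58 in the following distance classes and 0.378 per Mb over 500 kb away. The average over the span was 9.82. The single WT libraries had 34.8 and 35 per Mb in the first kb and 21.9 to 24.3 from 1 to 20 kb.

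Leaving out CTCF regions and sequence at gene ends gave 179 per Mb inside acetylated regions, 14.0 between them, 23.2 (20.5 to 26.2) in the first kb outside and 16.3 to 17.6 from 1 to 20 kb. The interval of the gaps inside clusters, 12.4 to 15.7, overlapped those of the flanks at 1 to 2 kb (15.6 to 19.8) and 2 to 5 kb (15.3 to 17.4) and lay below that at 5 to 10 kb (16.4 to 18.1). ETS1 behaved otherwise, with 328 per Mb inside, 5.04 between acetylated regions, 14.8 in the first kb, and only 1.16 to 1.73 from 1 to 20 kb. Relative to its density inside, CTCF was therefore much more frequent than ETS1 in the flanks. For ETS1 too, regions that overlapped the mark (7923) outnumbered midpoints inside it (7489), so its first kb has the same limit.

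**Figure D3:**
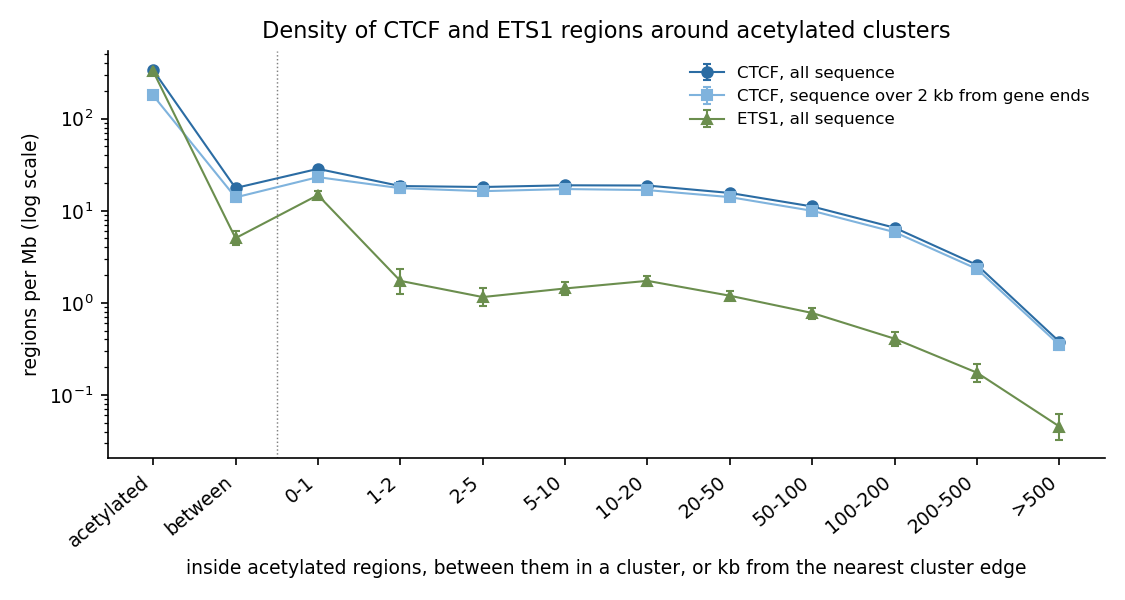
CTCF and ETS1 regions per Mb (log scale) inside acetylated regions, between the acetylated regions of a cluster, and by distance in kb from the nearest cluster edge, with 95% counting intervals. CTCF stays between 18.1 and 18.9 per Mb from 1 to 20 kb, whereas ETS1 drops to 1.73 per Mb or less beyond 1 kb.

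Gaps between neighbouring acetylated regions contained a CTCF region in 2.16% of cases when under 2 kb long, 12.6% at 5 to 10 kb, 41.5% at 20 to 50 kb and 86.2% over 100 kb. The density in these gaps was 20.5, 18.9, 20.3 and 5.35 per Mb, while that at 2 to 5 kb was 14.1, so up to 100 kb the density varied far less than the share. Of the 26417 intervals between neighbouring CTCF regions, 5125 (19.4%) held at least 1 acetylated region. The share was 1.13% for intervals under 5 kb, 24.3% at 20 to 50 kb and 36.8% at 100 to 200 kb. Only 10892 of the 19285 acetylated regions were counted in these intervals, and 8363 overlapped a CTCF region. An interval counted as without acetylation could thus still end at an acetylated CTCF region.

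Joining acetylated regions gave 11832 clusters, of which 8628 were regions standing alone and 3204 held 2 or more, with a median length of 9.63 kb. Of these 3204, CTCF lay within 5 kb of both outer edges in 1072, 33.5% (31.8 to 35.1), of 1 edge in 34.3% and of neither in 32.3%. In 935, 29.2%, no CTCF region lay at an edge or inside. In clusters over 10 kb, where the windows of the 2 edges do not overlap, the share at both edges was alike across lengths: 26.7% (23.9 to 29.7) at 10 to 20 kb, 27.8% (24 to 31.9) at 20 to 50 kb and 25.5% (14.7 to 39) of the 55 clusters over 50 kb. The share with CTCF inside was 70.9%, 79.8% and 94.5% in the same order. The median distance from an outer edge to the next CTCF region outside was 25.5 kb, with quartiles of 12.3 and 54.5 kb. The edge share depends on its window, at 19% for 2 kb and 53.7% for 10 kb, and on list length, at 15.5% with the 20000 best peaks and 4% at a −log10 q of at least 5. KO had 49.3%.

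Pooled over clusters, CTCF was more frequent in the outermost acetylated regions than in the inner ones. Clusters with more regions gave more of the inner ones, and outermost and inner regions of the same cluster were not compared. In clusters of 3 or more, 1065 of 2980 outermost regions, 35.7% (34 to 37.5), overlapped CTCF, against 856 of 4249 inner regions, 20.1% (18.9 to 21.4). Inner regions were the wider, with medians of 1107 and 1016.5 bp. Gene ends were more common among outermost regions, 36.6% against 20.8%, but the order was the same in every location. It was 60.2% against 44.2% at gene ends, 17.8% against 12.4% in gene bodies and 31.4% against 19.4% between genes. Regions in pairs had CTCF in 41.2% of cases and regions standing alone in 58.3%. In KO the shares were 51.9% and 30.1%. Leaving out 1 WT library at a time gave differences of 15.8 to 17.6 percentage points, beside 15.6. At a −log10 q of at least 5 the order turned, 12.5% of 24 outermost against 13.3% of 15 inner regions. This comparison was chosen after the data were seen, and no test over libraries was run on it.

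CTCF was placed in different ways in the 10 longest clusters, which lay at Prkch, Nfkb1, Cd5 with Cd6, Fyn, Rgs1, Myh9, the Gimap genes, Prkcq, Ikzf1 and Sla with Tg. The longest, 203 kb with 48 regions at Prkch, which encodes protein kinase C eta, had 4 CTCF regions inside and none within 5 kb of its edges. That of Nfkb1, an NF-kB subunit, was 121 kb long with 1 CTCF region inside, and Ikzf1, the Ikaros factor, had 1 inside 81.6 kb. At Cd5 and Cd6, neighbouring T cell surface receptors, a 116 kb cluster had CTCF near both edges, 1 and 2 regions, and 1 further inside. The 96.7 kb cluster of Fyn, a Src-family kinase of the T cell receptor, had no CTCF region at all, and the next ones lay 33.2 kb before and 13.7 kb after it. Among the 10 longest clusters it was the 1 without CTCF inside or at an edge.

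The longest clusters without CTCF after Fyn were at Bach2 (75.5 kb, 16 regions), a transcriptional repressor that restrains effector differentiation, Sema4d (74.7 kb), Pced1b (47.4 kb) and 311327 bp from Cblb (46.5 kb). At the other extreme, 5 clusters had CTCF near both edges and none between over the greatest length. The first was 55.1 kb with 13 regions over Erp29, Naa25 and Tmem116, the next 45.1 kb over Ndufa11, Ranbp3 and Vmac, and the others were at Tubgcp3 (40.1 kb), Rrbp1 (38.8 kb) and Iscu and Sart3 (38.6 kb). The most CTCF regions inside a cluster, 8, were at Dgkz, a diacylglycerol kinase, at Cd82, at Sirt2 with Nfkbib, and at Stk11 with Cirbp. Dgkz held them in 33.1 kb, and 6 of the 8 were acetylated.

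Ets1 itself had a 55.3 kb cluster of 9 regions with 1 CTCF region, at its first edge and acetylated (chr9:32695773-32696290, in the gene body). Its CTCF fold was 4.13 and 5.01 and its H3K27ac fold 5.54 and 6.13 in the WT libraries. The nearest CTCF regions outside the cluster were 101 kb before and 190 kb after it. The latter lay in a second cluster of 37.0 kb, chr9:32906098-32943055, between genes, with 8 acetylated regions and 2 CTCF regions at its far edge. Fli1, the neighbouring ETS gene, had 7 acetylated and 2 CTCF regions that did not overlap, with CTCF folds of 5.52 and 6.17 at one and 4.94 and 4.11 at the other.

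**Figure D4:**
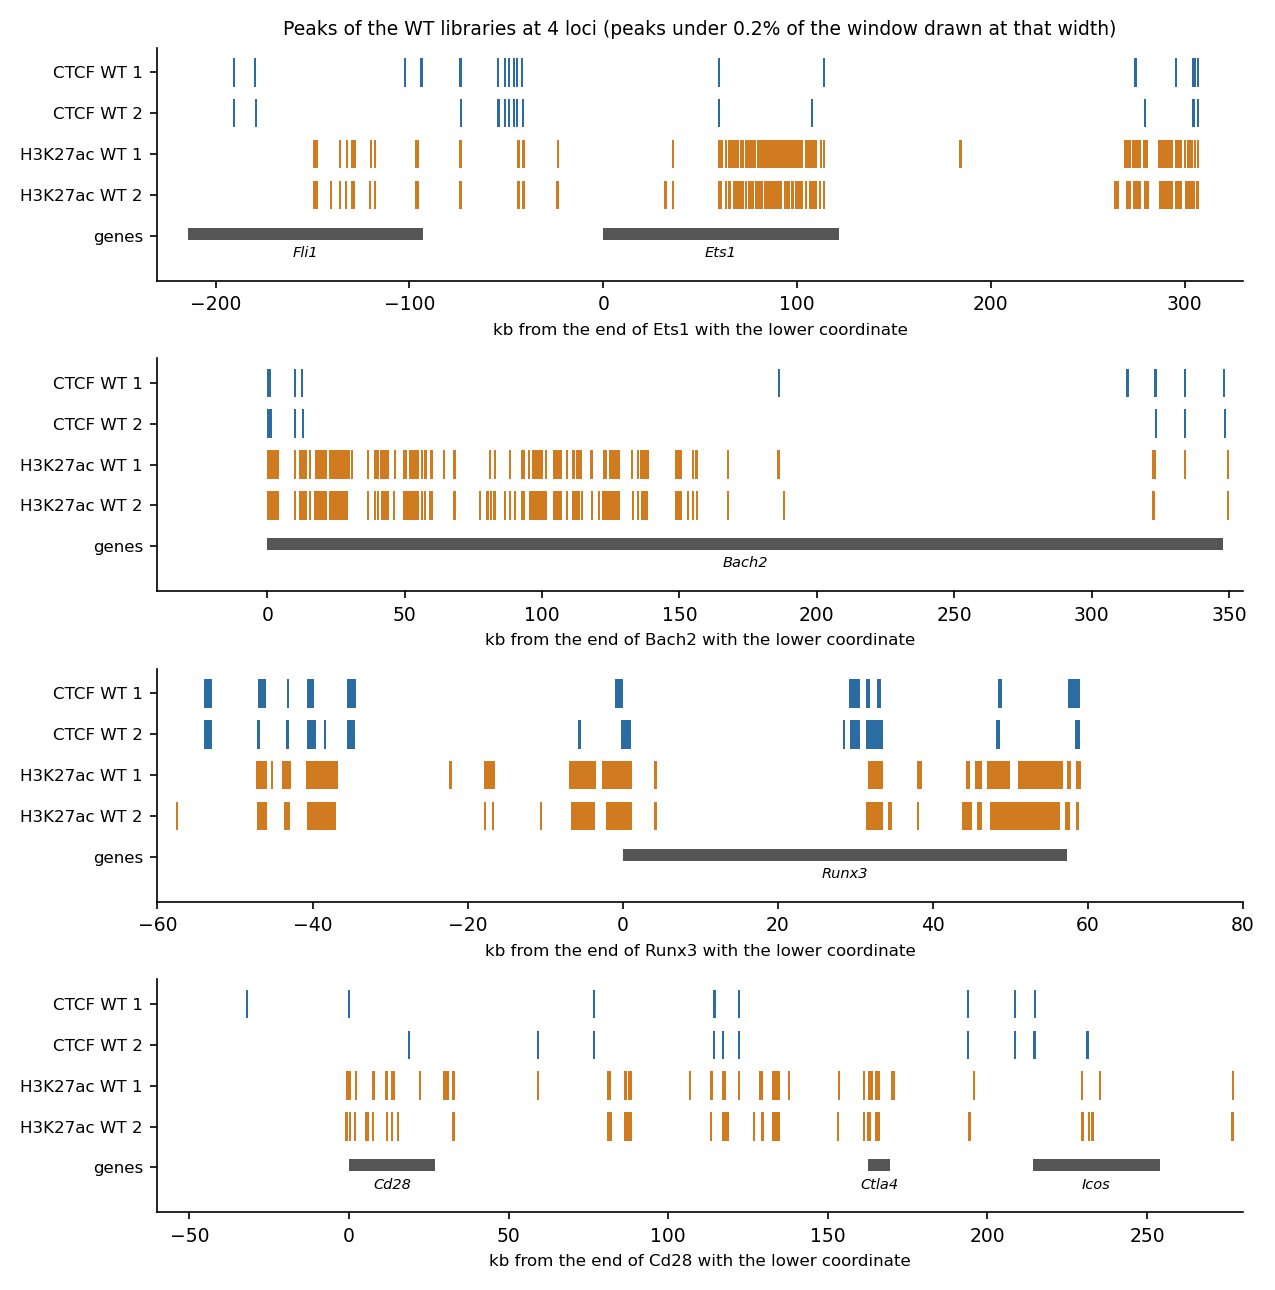
Peaks of the 4 WT libraries (CTCF blue, H3K27ac orange) and protein-coding genes (grey) at Ets1, Bach2, Runx3 and Cd28, in kb from the end of the named gene with the lower coordinate. At Ets1 the CTCF peak called in both libraries stands at the first edge of the acetylated block, and Bach2 has CTCF at both ends of the gene and a middle acetylated block without any called in both libraries.

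A region of either antibody was assigned to a gene when it lay in the gene or within 10 kb of it. By this count 62.9% of protein-coding genes had a CTCF region, 53.3% an H3K27ac region and 41.3% a CTCF region inside an H3K27ac region. Of the 22 Th1 genes, 16 had CTCF, 18 had H3K27ac and 15 had both in overlap. Runx3, a Th1 and CD8 lineage factor, had 5 CTCF and 10 H3K27ac regions, with 4 of the CTCF regions acetylated. The 1 that was not had CTCF folds of 4.46 and 4.77, and the one at the gene end of higher coordinate the highest folds, 6.15 and 8.15. Tbx21, which encodes T-bet, had 3 CTCF regions, of which the 2 acetylated ones had folds of 3.49 and 3.62 and of 3.85 and 3.63, and the other 5.50 and 6.29. Stat4, the transducer of IL-12 signals, had 5 of each, with 2 CTCF regions acetylated. The acetylated site in the gene body had CTCF folds of 2.72 and 2.84, and the 3 sites without acetylation 5.84 and 6.04, 3.32 and 3.36, and 5.94 and 6.25. Il12rb2 and Il2ra, receptors for IL-12 and IL-2, had 1 CTCF region each, acetylated, beside 7 and 10 H3K27ac regions.

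The T cell identity list had H3K27ac at 20 of 20 genes, CTCF at 17 and both in overlap at 14. Its genes had many acetylated regions per CTCF region: 165 against 40 in sum, with 23 CTCF regions acetylated. In these sums a region within the flanks of more than 1 gene counts for each. The median per gene was 7.5 H3K27ac and 2 CTCF regions, against 1 and 1 over all protein-coding genes. Ptprc, the CD45 phosphatase, had 12 acetylated regions and 1 CTCF region, which lay in the gene body outside them with folds of 3.84 and 3.27. Cd3e had 3 acetylated regions and no CTCF, and Cd4 had 3 of each with 2 in overlap. The naive and memory list had CTCF at 8, H3K27ac at 9 and both in overlap at 7 of 10 genes. Bach2 had 35 acetylated and 6 CTCF regions, 4 of them acetylated, in 2 groups at the ends of the gene. The CTCF site 10 kb into Bach2 had folds of 3.88 and 4.37 and the acetylation there folds of 3.40 and 3.23. Between these groups lay 311 kb without a CTCF region of both libraries, although 1 of the libraries had 2 peaks there. Satb1, a chromatin organiser, had 13 acetylated regions and 1 CTCF region. Lef1 had 11 and 4 with 1 in overlap, Tcf7 3 and 5 with 1, and Ccr7 3 and 2 with 1.

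Among 12 costimulatory and inhibitory receptor genes, 12 had H3K27ac, 8 had CTCF and 6 had both in overlap. The neighbours Cd28, Ctla4 and Icos differed. Cd28 had 6 and Ctla4 4 acetylated regions and neither had a CTCF region, while Icos had 2 CTCF regions outside its 1 acetylated region. The CTCF sites of Icos had folds of 3.91 and 4.04, and 4.24 and 5.05. The map of the Cd28 locus shows peaks of single CTCF libraries at Cd28 and a group of peaks of both libraries between Cd28 and Ctla4.

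The Th2 list, of genes for another helper lineage, had CTCF at 9 of 9 genes, H3K27ac at 6 and both in overlap at 5. Il4 and Il13, its cytokine genes, had CTCF and no H3K27ac region, while Rad50, which lies next to them, had 4 acetylated regions and 1 CTCF region, acetylated. The site between Il4 and Il13 (chr11:53627230-53628347) had CTCF folds of 5.77 and 6.97. The 20 Hox genes gave the clearest case of CTCF without acetylation, with CTCF at 16 and H3K27ac at 0. Hoxd8, Hoxd9 and Hoxd10 had 3 CTCF regions each within their flanks, which neighbouring Hox genes share. Housekeeping genes had CTCF at 13, H3K27ac at 15 and both in overlap at 10 of 16.

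The genes of CTCF and cohesin were acetylated at 11 of 11 and had CTCF at 8, in overlap with acetylation at all 8. Ctcf had 3 CTCF regions. The one at the gene end of lower coordinate had CTCF folds of 4.93 and 4.88 and H3K27ac folds of 6.56 and 7.21, and the one near the other end 8.08 and 7.84 against 5.11 and 4.39. The third, in the gene body, was not acetylated, with folds of 4.06 and 3.79. Rad21, a cohesin subunit, had 3 acetylated regions and no CTCF region. Myc had 2 CTCF regions, both overlapping its 1 acetylated region. Cd8a, of the other T cell lineage, had neither mark.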

How the data were processed

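Reads were aligned by the authors with BWA, and the build is GRCm38, both per the submitters' processing notes. Every library has its own deposited peak list of 9 unnamed columns. They were read by the layout of MACS broad peaks. The score the authors deposited is the q-value's −log10 multiplied and cut to a whole number. The fold is the authors' ratio of enrichment, and the last columns are the deposited −log10 p and −log10 q. These values served only to describe or rank peaks within a list. For the caller's options, its control and any blacklist, the sources used here give nothing. No counts are in the lists, so depth is unknown.

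Chromosomes 1 to 19, X and Y were used, with Python 3.11.15, pandas 2.3.3 and scipy 1.17.1. Genes and promoter windows came from RefSeq tables of GRCm38.p6 (21887 protein-coding genes, 79.8% with a window). The gene table has no strand, so both gene ends were used. Overlap meant at least 1 bp, clusters joined acetylated regions over at most 10 kb, and edge windows were 5 kb. A region's rank percentile is that of its best peak in the library where it ranks lower. Exact two-sided permutation tests ran over libraries, and intervals are at 95%. Scripts were tested on simulated data. The members, the 16 gene lists, the gene-naming rule and the tests were chosen with earlier results of these data known. Named are a set list of T cell and architecture genes and those at the 10 longest clusters, the 5 extremes of each cluster class, the densest windows, the longest intervals and the best-ranked acetylated sites. Names given for windows, intervals and extremes with many genes, and Cxcr3, the Hox genes and the printed promoters, were picked after their values were seen. Alternatives changed the gene-end distance, stitching, edge window, overlap rule, peak threshold, list length, genotype and libraries.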

Additional observations from a re-analysis of the deposited data

How the results depend on the processing

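Of 83 alternatives to 8 results, 43 kept the value within the spread between single libraries or on the same side of the threshold, 35 moved a value that has no test, 3 passed the threshold and 2 reversed. Tests of 2 against 2, 3 against 3 or 2 pairs cannot pass the threshold, so their label could change only with the sign. The 43 therefore do not measure stability: they include the gene-end difference of −50.3 percentage points at a −log10 q of at least 5. The 3 passed with 4 libraries of each antibody (exact permutation p = 0.0286), which counts the WT technical replicates separately: −5.88 percentage points at gene ends, −208 bp in median width and 5.63 kb in spacing, CTCF minus H3K27ac. With 1 value per biological sample, an alternative added after the data were seen, none passed (−5.59, −217 and 5.34, exact permutation p = 0.1, the smallest possible). Both reversals came with a −log10 q of at least 5: −94.6 kb in spacing, and −0.833 percentage points for outermost minus inner regions, on 24 and 15 regions.

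The share of CTCF regions in acetylated regions was 29.1% by midpoint, 28.1% when at least 50% of the CTCF region had to be covered, 7.84% at the q threshold, 24.9% with the 20000 best peaks and 36.8% in KO. Without 1 library it ran from 29.7% to 34.3%. The share of clusters with CTCF at both edges was 34.5% and 34.7% with stitching over 5 and 20 kb, 19% and 53.7% with edge windows of 2 and 10 kb, 35.1% on sequence covered in both libraries, 33.0% when libraries had to share 50% of the shorter peak, 4% at the q threshold, 15.5% with the 20000 best peaks and 49.3% in KO. Without 1 library it ran from 30.7% to 42.0%.

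The median distance between CTCF regions was 23.4 kb on shared sequence, 24.5 kb with 50% sharing, 72.9 kb at the q threshold, 38.0 kb with the 20000 best peaks and 18.7 kb in KO, and 19.778 to 19.782 kb without 1 library. Outermost exceeded inner regions by 12.4 and 19.5 percentage points with stitching over 5 and 20 kb, 10.4 with the 20000 best peaks and 21.8 in KO, and by 15.8 to 17.6 without 1 library. The cause of these shifts was not tested, but both cuts leave fewer regions of each antibody. With a replicate block, pairing libraries of the same number, the gene-end difference stayed −6.74 percentage points with exact permutation p = 0.5, the smallest that 2 pairs allow. No call could change under the block, because 2 pairs cannot pass the threshold. The labels do not say that same-numbered libraries of different antibodies share cells. Depth, the number of WT mice behind each library and the peak caller's settings limit every value.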
